A study of Homo sapiens with 35 samples.

Results

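Claudin genes were followed through the early differentiation of human embryonic stem cells: CLDN3, CLDN4, CLDN5, CLDN6, CLDN7, CLDN10, CLDN11 and CLDN18, which are 8 of the 58581 gene rows of the deposited count table and were taken by their symbols. H9, an established human embryonic stem cell line, was cultured in E8 medium on Matrigel and seeded as single cells. Poly(A) RNA was sequenced in 35 libraries. Of these, 3 came from t0. The others came from hours 6 to 48, in steps of 6 h, in E8 (10 libraries, the control that keeps cells pluripotent), in E6 (10 libraries, the control that differentiates on its own) or in BA (12 libraries). BA adds BMP4 and Activin A, labelled 40 ng/mL, to E6 and is the mesendoderm condition, mesendoderm being the early germ layer that gives rise to mesoderm and endoderm. E6 is E8 without the growth factors FGF2 and TGF-beta. t0, BA at 24 h and the 48 h samples of BA, E6 and E8 have 3 replicates each, and the other 20 groups have 1 library each. All groups come from the same line and none carries a transgene or deletion in its label. No label ties a replicate to its own culture, so p-values measure only the spread between these samples, which may be technical.

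Claudins are small membrane proteins that cross the membrane several times and form the strands of the tight junction, the seal near the top of an epithelial sheet. Some members tighten the seal and others make pores for ions, so the mix of claudins sets what passes between cells. Pluripotent stem cells grow as an epithelial sheet. Cells that enter the primitive streak leave such a sheet in an epithelial to mesenchymal transition, in which SNAI and ZEB transcription factors bind E-box motifs and repress junction genes, CDH1 and claudins among them.

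The claudin promoters are shown here because the E-box of SNAI and ZEB factors, CACCTG, can be searched for. SNAI1, SNAI2 and ZEB2 were higher in BA than in E6 over time, and ZEB1 was not called. SNAI1 and SNAI2 were not raised in every library with low CLDN7, as given below. In the sequences below, from RefSeq on GRCh38.p14, each run holds the 250 bases upstream of an annotated start, 5′ to 3′ on the gene's strand, and capitals mark CACCTG or its reverse complement CAGGTG. CLDN7 at its downstream start (chr17:7262479-7262728, minus strand) held 4 matches, CLDN4 (chr7:73830746-73830995, plus strand) held 0 and CLDN11 (chr3:170418618-170418867, plus strand) held 0.
CLDN7: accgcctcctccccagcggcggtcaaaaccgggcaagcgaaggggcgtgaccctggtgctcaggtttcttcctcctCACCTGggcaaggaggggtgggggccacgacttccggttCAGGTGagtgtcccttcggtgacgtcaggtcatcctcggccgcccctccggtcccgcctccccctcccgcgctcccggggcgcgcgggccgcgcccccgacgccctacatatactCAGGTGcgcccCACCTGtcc
CLDN4: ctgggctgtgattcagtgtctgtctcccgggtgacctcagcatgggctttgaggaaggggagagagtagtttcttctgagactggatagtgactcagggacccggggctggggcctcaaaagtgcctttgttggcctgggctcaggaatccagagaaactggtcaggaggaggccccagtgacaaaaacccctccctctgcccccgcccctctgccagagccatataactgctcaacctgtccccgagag
CLDN11: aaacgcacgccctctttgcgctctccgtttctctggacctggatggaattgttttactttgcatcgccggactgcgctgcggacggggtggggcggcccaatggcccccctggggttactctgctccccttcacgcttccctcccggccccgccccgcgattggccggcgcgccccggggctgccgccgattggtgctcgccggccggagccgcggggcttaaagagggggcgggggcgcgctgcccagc
The 4 matches of CLDN7 began at positions -174, -135, -20 and -9 from the start, with -1 the last base before it. The upstream start of CLDN7 held none. The promoters of CLDN3, CLDN6 and CLDN10 held none, and the upstream start of CLDN18 held 1, at -99. Of all 35116 promoter windows of this length in the RefSeq table, 17.5% held the motif on either strand. Searched in the same way, the Grainyhead motif AACCGGTT was in none of the claudin windows and in 0.117% of all windows. The AP-2 motif GCCNNNGGC was in those of CLDN3 and CLDN6, 1 match each, and in 19.8% of all windows. A match describes the letters only.

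By GENCODE release 29 on GRCh38, CLDN3 (chromosome 7, 73768997 to 73770270, minus strand) and CLDN4 (73799542 to 73832693, plus strand) are neighbours. CLDN6 (chromosome 16, 3014712 to 3020071, minus strand) lies next to CLDN9. CLDN7 (chromosome 17, 7259903 to 7263983, minus strand) overlaps ELP5 on the other strand and AC003688.1 on its own, and CLDN6 overlaps TNFRSF12A in the same way. CLDN10 (chromosome 13, 95433604 to 95579759, plus strand) overlaps CLDN10-AS1 and DZIP1. CLDN11 (chromosome 3, 170418865 to 170454733, plus strand) overlaps further annotated transcripts on its own strand. CLDN18 (chromosome 3, 137998735 to 138033655, plus strand) overlaps an antisense gene, and CLDN5 is on chromosome 22 (19523024 to 19527545, minus strand). Whether counting used the strand is not given in the sources used here, so reads of a claudin and of an overlapping gene cannot always be told apart.

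Libraries held 11793453 to 37191969 counts. Replicates 2 and 3 stood apart from replicate 1 and the single libraries. In a fit with a term for this split over the 5 replicated groups, 70.8% of 21554 genes differed. Of the 8 claudins, 6 were higher in replicates 2 and 3 (39.2% of all genes were higher): CLDN3 by 8.03-fold, CLDN7 by 7.36-fold, CLDN4 by 6.15-fold, CLDN10 by 2.76-fold, CLDN6 by 2.42-fold and CLDN5 by 1.73-fold. CLDN11 was 1.28-fold lower, and CLDN18 did not pass the test (adjusted p = 0.226). Epithelial genes stood higher in the same libraries, in 18 of the 20 listed. Of the 8 SNAI, ZEB and mesenchymal genes, 5 stood lower (31.7% of all genes were lower), ZEB1 (10.2-fold), ZEB2 (12.3-fold) and SNAI2 (6.49-fold) among them. SNAI1 (log2 difference 0.72, adjusted p = 0.131), TWIST1 (1.16, 0.102) and VIM (-0.053, 0.886) did not pass the test. Genes of mesendoderm also differed along this split, with EOMES 12.2-fold and SOX17 40.6-fold lower in replicates 2 and 3. The labels name no batch for it, and its part in the results below is shown by giving each set of replicates.

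Single libraries also stood apart. BA at 42 h, E8 at 18 h and E8 at 36 h were low in CLDN7, at 0.864, 0.748 and 0.521 CPM (counts scaled to a common, TMM-adjusted library size), against 10 to 16.6 CPM in 13 other E6 and E8 libraries of the time course. CLDN4 was low in the same libraries, at 0.555, 1.25 and 0.913 CPM against 3.56 to 6.75 CPM. The adherens junction cadherin CDH1, at 22.5, 18.6 and 24.8 CPM against 98.6 to 180 CPM, and the splicing regulator of epithelial cells ESRP1, at 19.4, 12.3 and 21.7 CPM against 109 to 142 CPM, were low with them. CLDN11 went the other way, at 116, 52.4 and 47.8 CPM against 6.02 to 22.9 CPM. The neighbours of BA at 42 h in its own course, 36 h and 48 h in replicate 1, already stood at 28.3 and 78.8 CPM of CLDN11 and at 1.66 and 1.90 CPM of CLDN4, so part of its distance from E6 and E8 is shared by late BA. For CLDN7 those neighbours stood at 8.26 and 6.09 CPM, and for CDH1 at 129 and 42.3 CPM. In E8 at 18 and 36 h, CLDN3 (2.99 and 2.22 CPM) and CLDN10 (11.7 and 11.8 CPM) were inside the range of the 13 libraries. There SNAI1 (4.05 and 3.13 CPM) and SNAI2 (4.43 and 3.78 CPM) were inside it too. ZEB2 (39.8 and 45.8 CPM against 15.3 to 38.8) was above it, and ZEB1 stood at 41.5 and 46.9 CPM against 20 to 43.2. In BA at 42 h SNAI1 (54.3 CPM), SNAI2 (61.8 CPM) and ZEB2 (99.9 CPM) were above the range and ZEB1 (41.5 CPM) was inside it. The labels give no reason for these libraries, and their part in the results was not tested beyond leaving them out. E6 at 18 h was above the range of the 13 libraries in CLDN7 (29.7 CPM), CLDN4 (9.35 CPM) and CLDN6 (696 CPM), and below it in ZEB1, at 8.49 CPM against 20 to 43.2 CPM. In CDH1 (103 CPM), ESRP1 (135 CPM) and CLDN11 (10.6 CPM) it was inside the range. Time course results are given with and without these libraries where that changed a call.

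**Figure D1:**
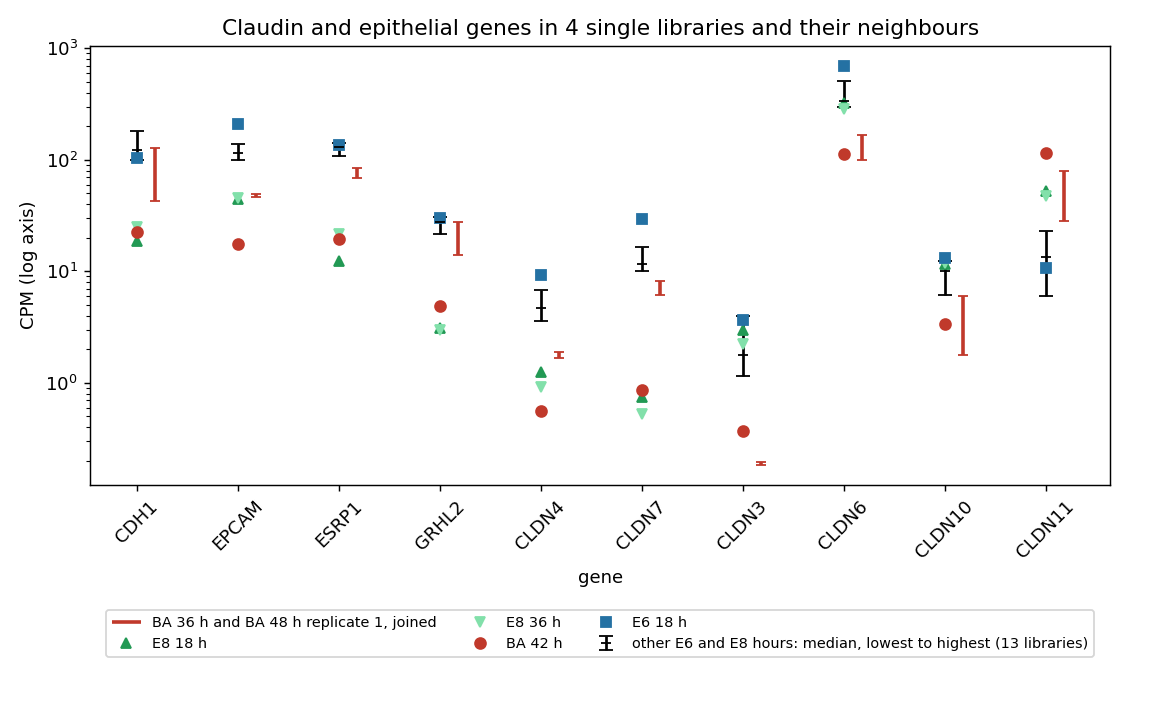
CPM on a log axis of 4 epithelial genes and 6 claudins in the single libraries of E8 at 18 h, E8 at 36 h, BA at 42 h and E6 at 18 h, beside the median and the lowest to highest value of 13 other E6 and E8 libraries (black) and the values of BA at 36 h and at 48 h in replicate 1 (joined red dashes). CLDN4, CLDN7 and the epithelial genes lie below the range in the first 3 of these libraries, and CLDN11 lies above it, as it does in BA at 36 and 48 h.

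CLDN11, the claudin of myelin and of Sertoli cells, differed in 5 of the 8 comparisons of groups: it rose in BA between 24 and 48 h and was higher there at 48 h than in the other 4 replicated groups. At t0 its levels were 14.2, 9.36 and 8.89 CPM in replicates 1, 2 and 3. In BA they were 9.04, 7.01 and 6.52 CPM at 24 h and 78.8, 47.8 and 47.6 CPM at 48 h. At 48 h they were 6.51, 5.65 and 5.08 CPM in E6 and 21.6, 23.8 and 22.3 CPM in E8. All 3 BA libraries at 48 h lay above every library of t0, of BA at 24 h and of E6 and E8 at 48 h, without overlap. The single E8 libraries at 18 and 36 h, at 52.4 and 47.8 CPM, reached the level of replicates 2 and 3 of BA at 48 h. At 48 h E8 lay above t0 and E6 below t0, also without overlap. The share of all genes that separate in this way was not counted, so here and below a lack of overlap is a description only. In bulk RNA, fewer expressing cells and less RNA per cell cannot be told apart.

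By edgeR's quasi-likelihood test, CLDN11 was 7.88-fold higher in BA at 48 h than at 24 h (log2 change 2.98 ± 0.26 SE, adjusted p = 0.000863). It was the only claudin of the 8 called in that comparison, where 0.455% of all genes were called. The rise over t0 was 5.53-fold (log2 change 2.47 ± 0.26 SE, adjusted p = 0.000409), again the only call among the 8, against 6.37% of all genes. The level in BA at 48 h was 10.3-fold that in E6 (log2 difference 3.37 ± 0.27 SE, adjusted p = 8.71e-05), the only call among the 8, against 3.52% of all genes. These 3 comparisons kept their calls without any 1 of their 6 libraries. BA at 48 h was also 2.63-fold above E8 (log2 difference 1.39 ± 0.25 SE, adjusted p = 0.0124), the only call among the 8, against 2.44% of all genes. That call was lost without replicate 1, 2 or 3 of E8 (adjusted p = 0.0741, 0.0842 and 0.0625). The fitted log2 change from t0 was 2.49 in replicate 1 and 2.45 in replicates 2 and 3, and the difference between them was not called (adjusted p = 0.918).

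Media without BMP4 and Activin A also parted in CLDN11. It was 3.93-fold lower in E6 than in E8 at 48 h (log2 difference -1.97 ± 0.26 SE, adjusted p = 0.0112), and it was 1 of only 31 genes called there, 0.144% of all tested. That call was lost without replicate 2 or 3 of E8 (adjusted p = 0.110 and 0.0617) and without replicate 2 or 3 of E6 (0.107 and 0.115). Against t0, CLDN11 differed by a log2 of 1.07 in E8 (adjusted p = 0.0930, and 0.00202 with replicate number as a block) and by -0.90 in E6 (0.0647, with the block 0.00354). With the 2 groups alone in the fit, 3 of its 5 calls were lost: BA at 48 h against 24 h (adjusted p = 0.125), against E8 (0.176) and E6 against E8 (0.107).

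In the 8 time points of BA from single libraries and replicate 1, CLDN11 stood at 9.38 CPM at 6 h, 5.55 at 12 h, 3.99 at 18 h and 9.04 at 24 h. It then stood at 11.3 CPM at 30 h, 28.3 at 36 h, 116 at 42 h and 78.8 at 48 h. The low came at 18 h and the high levels from 36 h on. E6 ranged from 6.02 to 22.9 CPM with a median of 11.4, and E8 from 9.60 to 52.4 CPM with a median of 18.2. In edgeR spline fits of time over these 24 libraries, the curve of CLDN11 in BA differed from E6 (adjusted p = 0.00163) and from E8 (0.00534) and changed with time (0.000241, fitted log2 change from 6 to 48 h of 3.59). Averaged over the 8 hours the curve in BA lay 0.58 above E6 and 0.41 below E8 (log2 -0.41), so the mean hides a difference in shape. Without BA at 42 h and E8 at 18 and 36 h, left out after seeing the data, the E8 comparison stayed called (adjusted p = 0.000891) with a mean difference of -0.03. With each hour as a pair, which tests the mean over hours alone, neither comparison was called (adjusted p = 0.431 and 0.999).

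**Figure D2:**
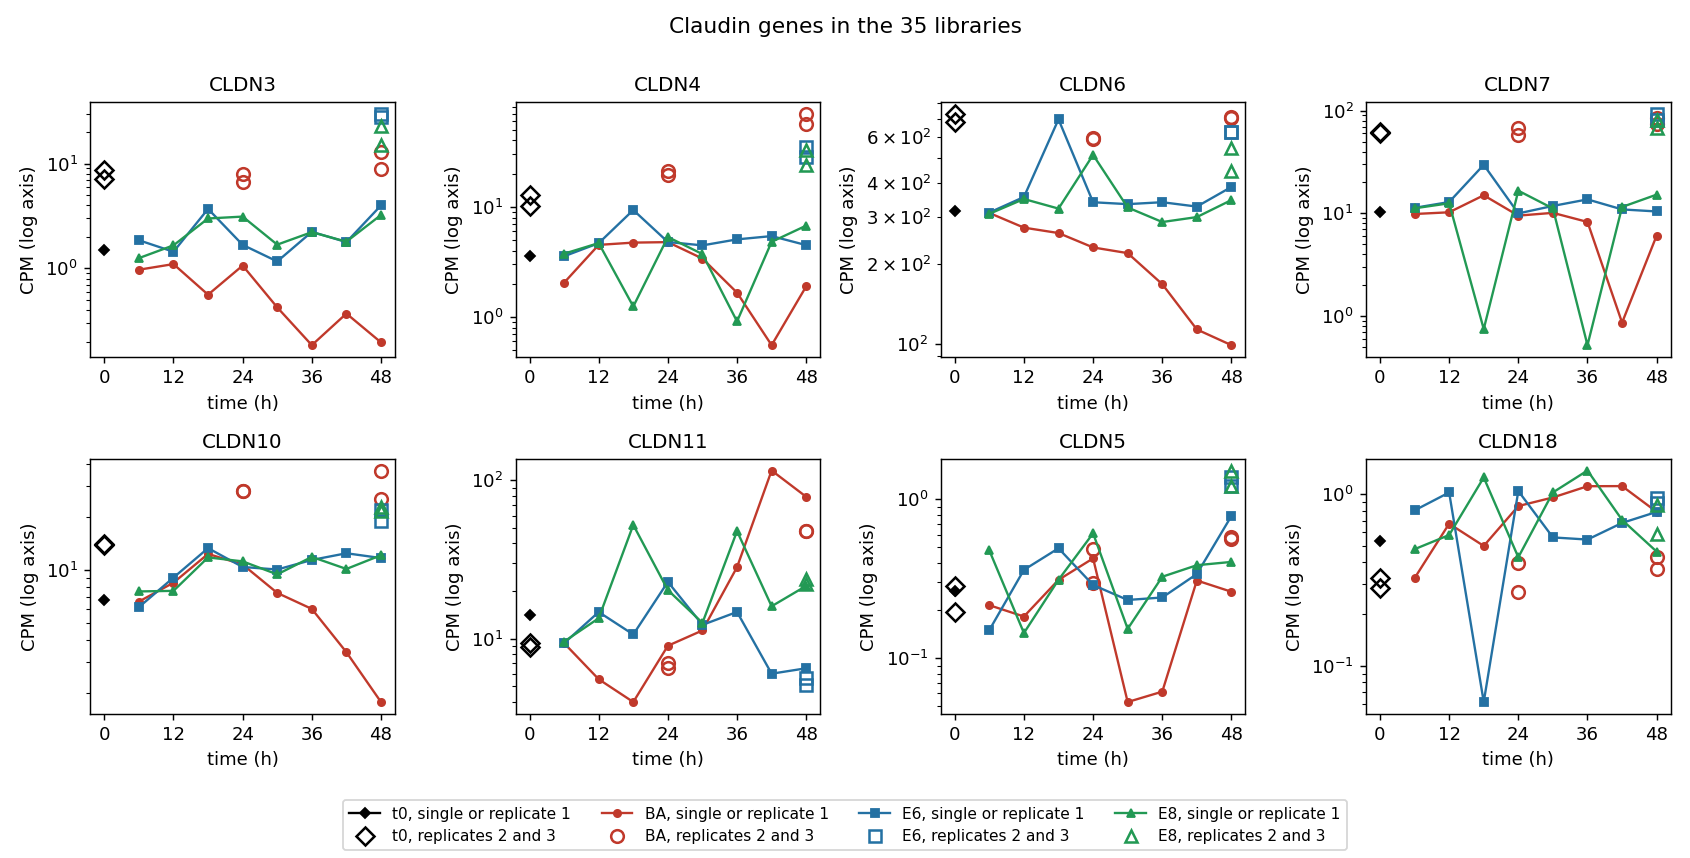
CPM of the 8 claudins (log axis, scale set per panel) against hours in culture, with lines and filled marks for single libraries and replicate 1 and open marks for replicates 2 and 3. CLDN11 reaches 78.8, 47.8 and 47.6 CPM in BA at 48 h, while the open marks of CLDN3, CLDN4, CLDN7 and CLDN10 lie above every filled one.

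CLDN6, a claudin of early embryonic epithelium that pluripotent cells express strongly, had the highest mean level of the 8 per kb of exon in each of the 5 replicated groups. It was 315, 731 and 682 CPM at t0 and 230, 589 and 590 CPM in BA at 24 h. At 48 h it was 98.8, 710 and 702 CPM in BA, 388, 625 and 623 CPM in E6 and 346, 541 and 444 CPM in E8. Replicate 1 of BA at 48 h is the lowest of all 35 libraries, while replicates 2 and 3 of that group are within the range of t0. No comparison of groups called CLDN6, and against t0 the adjusted p in BA at 48 h was 0.988. In the time course the levels in BA were 310, 273, 260 and 230 CPM from 6 to 24 h and 219, 167, 113 and 98.8 CPM from 30 to 48 h. Each hour in BA lay below the hour before. E6 ranged from 311 to 696 CPM and E8 from 286 to 512 CPM. In the spline fit CLDN6 was lower in BA than in E6 by a mean log2 of 0.96 (log2 difference -0.96, adjusted p = 2.43e-05) and than in E8 by 0.81 (-0.81, 0.000109). It fell in BA with time (log2 change -1.67, adjusted p = 0.00129). With replicates 2 and 3 added under a term for their split, the fall in BA and the difference from E8 were no longer called (adjusted p = 0.331 and 0.113).

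CLDN10, a paracellular ion channel claudin, was also called in the time course. In BA it stood at 6.58, 8.42, 12.3 and 10.7 CPM from 6 to 24 h, and at 7.37, 5.98, 3.39 and 1.77 CPM from 30 to 48 h. The course in BA thus went up to 18 h and down after it, whereas E6 stood at 6.12 to 13.2 CPM and E8 at 7.51 to 12.1 CPM. CLDN10 was lower in BA than in E6 (mean log2 difference -0.75, adjusted p = 5.18e-06) and than in E8 (-0.72, 6.87e-06), and it fell in BA from 6 to 48 h (log2 change -1.77, adjusted p = 1.22e-05). In the replicated groups, however, CLDN10 stood at 6.69, 14.0 and 13.8 CPM at t0 and at 1.77, 25.2 and 36.5 CPM in BA at 48 h. Replicate 1 was below its t0 level there and replicates 2 and 3 were above theirs. With all 32 libraries after t0 and a term for the split, the fitted change in BA was 0.30 (adjusted p = 0.245), the opposite sign, and the differences from E6 and E8 were not called (adjusted p = 0.360 and 0.439). With paired hours they were not called either (0.0714 and 0.0909).

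CLDN3 and CLDN4, receptors of Clostridium enterotoxin in epithelia, also differed between replicate 1 and replicates 2 and 3. CLDN3 stood at 1.49, 8.68 and 7.19 CPM at t0 and at 0.197, 13 and 8.83 CPM in BA at 48 h. In E6 at 48 h it stood at 3.99, 28.0 and 29.9 CPM, and in E8 at 3.23, 23.1 and 15.2 CPM. Within each replicate number BA was the lowest of the media at 48 h, but the groups overlapped. The difference between BA and E6 was -1.49 ± 1.20 SE on the log2 scale (adjusted p = 0.698, with the block -1.73 and 0.00754), and that between BA and E8 was called with the block too (-1.19, adjusted p = 0.0494). Against t0, the block called CLDN3 in E6 (log2 change 1.80, adjusted p = 0.00495) and E8 (1.25, 0.0342), where the fit without it did not. In the time course CLDN3 lay between 0.185 and 1.10 CPM in BA, between 1.16 and 3.99 CPM in E6 and between 1.25 and 3.23 CPM in E8. No BA library reached the lowest of E6. Its mean log2 difference was -2.02 from E6 (adjusted p = 0.000112) and -2.04 from E8 (8.72e-05). BA at 36 h and at 48 h in replicate 1 held 3 counts of CLDN3 each, so its late level in BA is known only roughly.

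CLDN4 stood at 3.56, 12.9 and 10.2 CPM at t0 and at 4.78, 21.0 and 19.3 CPM in BA at 24 h. At 48 h it stood at 1.90, 70.0 and 56.3 CPM in BA, at 4.49, 34.8 and 28.6 CPM in E6 and at 6.75, 33.1 and 23.9 CPM in E8. Replicates 2 and 3 of BA at 48 h are the highest of all libraries, and replicate 1 is below its own t0. The log2 change from t0 in BA was 2.33 ± 1.11 SE (adjusted p = 0.278, with the block 1.81 and 0.0174). In the time course CLDN4 was not called between BA and E6 (adjusted p = 0.112), BA and E8 (0.167) or with time in BA (0.122). Without BA at 42 h and E8 at 18 and 36 h these adjusted p-values were 0.00834, 0.0115 and 0.0154, with CLDN4 lower in BA by a log2 of 0.85 than in E6 (-0.85). The libraries left out were chosen after seeing the data and were low in CLDN4 itself, so these values serve as a description only.

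CLDN7, a claudin of basal and lateral epithelial membranes that binds EPCAM, was not called in any comparison of groups or time test. It stood at 10.3, 60.7 and 61.4 CPM at t0 and at 9.51, 68.4 and 58.5 CPM in BA at 24 h. At 48 h it stood at 6.09, 84.4 and 74.7 CPM in BA, 10.4, 93.5 and 80.6 CPM in E6 and 15.2, 80.8 and 67.9 CPM in E8. The groups overlapped in every comparison of groups made. Over time the adjusted p was 0.748 between BA and E6 and 0.850 between BA and E8. Its drops to below 1 CPM came in the 3 libraries that stood apart. Leaving out those and E6 at 18 h, CLDN7 was called lower in BA than in E6 (mean log2 difference -0.32, adjusted p = 0.0317) and than in E8 (-0.50, 0.00375). The libraries left out were chosen after seeing the data and stood apart in CLDN7 itself, so these calls serve as a description only.

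**Figure D3:**
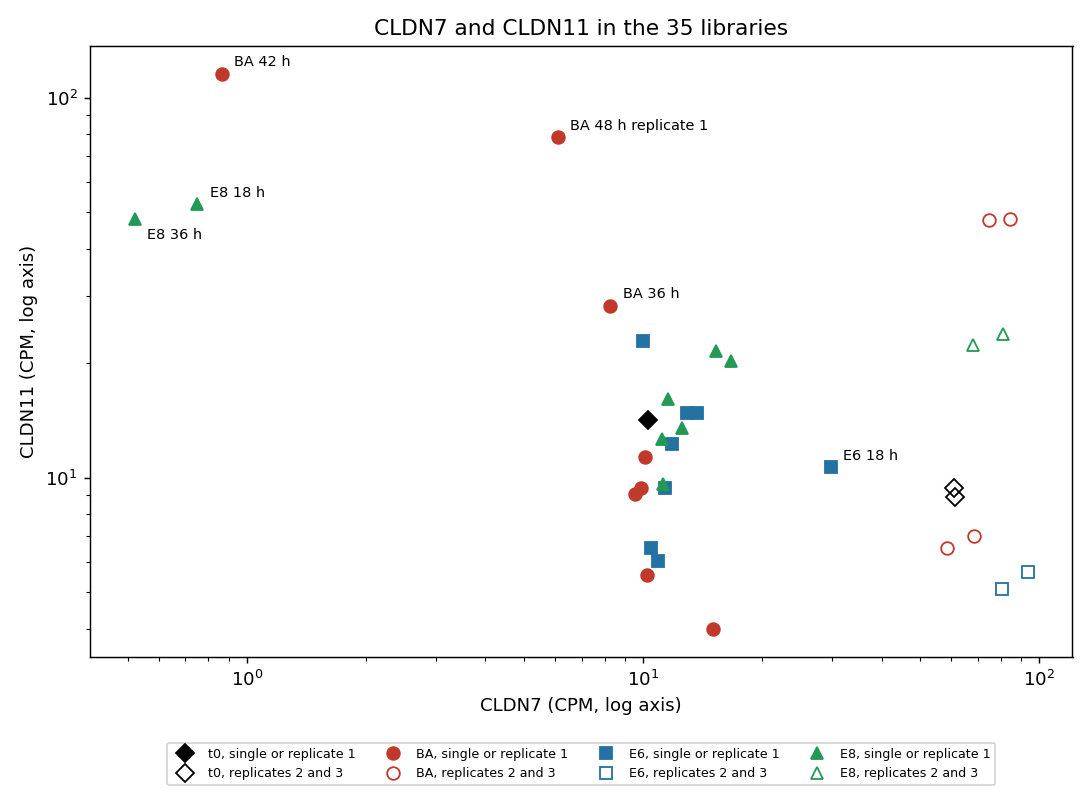
CLDN11 against CLDN7 in CPM, both on log axes, 1 mark for each of the 35 libraries, with colour and shape for the medium and open marks for replicates 2 and 3. BA at 42 h and E8 at 18 and 36 h lie at the upper left, with CLDN7 below 1 CPM and CLDN11 at 47.8 to 116 CPM, and replicates 2 and 3 lie at the right.

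CLDN5, the claudin of the blood-brain barrier, and CLDN18, the claudin of stomach and lung, were near the limit of detection. CLDN5 had 1 to 60 counts per library and CLDN18 had 1 to 33. CLDN5 stood at 0.266, 0.194 and 0.283 CPM at t0 and at 0.786, 1.38 and 1.21 CPM in E6 at 48 h, without overlap. It rose 4.62-fold in E6 over t0 (log2 change 2.21 ± 0.51 SE, adjusted p = 0.0373), the only call among the 8 claudins there, against 3.88% of all genes. The call was lost without replicate 1, 2 or 3 of t0 (adjusted p = 0.0729, 0.153 and 0.143) and without replicate 2 or 3 of E6 (0.134 and 0.125). In E8 at 48 h CLDN5 stood at 0.404, 1.52 and 1.21 CPM (with the block adjusted p = 0.00518), and in BA at 48 h at 0.262, 0.563 and 0.583 CPM, below E6 without overlap (with the block adjusted p = 0.0329). CLDN5 is also an endothelial gene. The 6 listed endothelial markers summed to 87.1 to 158 CPM at t0 and to 73.1 to 92.0 CPM in E6 at 48 h, none of them at 0 counts over a group. Most of these sums lay in KDR (means of 70.4 and 49.5 CPM) and TEK (26.1 and 25.4 CPM). TIE1 (9.97 and 3.86 CPM), ERG (1.52 and 0.473 CPM) and PECAM1 (0.269 and 0.292 CPM) were lower. CDH5, an endothelial cadherin, had a mean of 2.47 ± 1.66 CPM (SD, n = 3) at t0, 0.861 ± 0.476 in E6 and 6.05 ± 2.32 in E8 at 48 h. The neuroectoderm list summed to 50.6 to 73.8 CPM at t0 and to 200 to 333 CPM in E6 at 48 h. Its rise lay in OTX2 (means of 58.9 and 241 CPM) and FEZF1 (1.14 and 35.9 CPM). PAX6 (0.585 and 0.895 CPM) and LHX2 (1.78 and 1.97 CPM) moved little, and SOX1 (1.72 and 1.37 CPM) was lower in the mean. In E6 at 48 h CLDN5 and CLDN18 stood above t0 without overlap, and CLDN11 below it. CLDN3, CLDN4, CLDN7 and CLDN10 stood above t0 only within each replicate number. The part of these cell types in the claudin levels was not tested. CLDN18 stood at 0.531, 0.324 and 0.283 CPM at t0 and at 0.786, 0.888 and 0.952 CPM in E6, higher without overlap (log2 change 1.24 ± 0.47 SE, adjusted p = 0.160, with the block 0.0279). CLDN5 did not pass the count filter of the time fit, and CLDN18 passed it but was called in none of its tests.

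At 24 h in BA, 0 of the 8 claudins were called against t0 by edgeR, with 0 at an unadjusted p below 0.05 and 0 called by DESeq2, while 1.57% of all genes were called by edgeR. CLDN5 was higher there without overlap (0.425, 0.299 and 0.488 CPM), at an adjusted p of 0.894. CLDN10 (adjusted p = 0.937) and CLDN4 were higher within each of the 3 replicate numbers, and CLDN3, CLDN6 and CLDN11 were lower within each. E8 at 48 h against t0 also gave 0 calls by edgeR, where edgeR called 0.139% of all genes, and 2 claudins had an unadjusted p below 0.05. DESeq2 called 2 there, CLDN5 and CLDN11, and its own share of all genes is not given here. With the replicate block, 3 claudins were called in E8 against t0 (25.6% of all genes), 4 in E6 against t0 (35%), 2 in BA at 48 h against t0 (28.5%), 3 in BA against E6 (22.1%) and 2 in BA against E8 (17.6%). It called 0 in BA at 24 h against t0 (8.95%), 1 in BA at 48 h against 24 h (10%) and 1 in E6 against E8 (2.84%). With replicates 2 and 3 alone, which agree closely with each other, the counts were 3 in BA at 24 h against t0 (CLDN4, CLDN10 and CLDN11, 20.7% of all genes), 4 in BA at 48 h against 24 h (34.1%), 6 in BA against E6 (36.7%) and 2 in E6 against E8 (18.4%). Against t0 they were 8 in E8 (51.3%), 5 in BA at 48 h (46.7%) and 7 in E6 (54.4%), and BA against E8 gave 6 (33.1%). The median log2 change of the 8 from t0 was 0.71 in BA at 48 h, 0.94 in E6 and 0.93 in E8, where the medians of all genes were 0.016, -0.016 and -0.014. The median in BA joins replicates that disagree. With replicates 2 and 3 alone it was 0.85. In replicate 1 CLDN3 (-2.88), CLDN4 (-0.89), CLDN6 (-1.66), CLDN7 (-0.75) and CLDN10 (-1.91) lay below t0, CLDN5 was at -0.008, and CLDN11 (2.49) and CLDN18 (0.57) lay above. Over time, 4 of the 7 claudins tested were called between BA and E6 (30.3% of all genes), 4 between BA and E8 (30%) and 3 with time in BA (22.1%). Between E6 and E8 over time, edgeR called 0 (0 at an unadjusted p below 0.05, and 0 by DESeq2), against 0.0596% of all genes. With time in E6 it called 0 (2 at an unadjusted p below 0.05, 0 by DESeq2), against 1.98% of all genes. With time in E8 it called 0 (0 and 0), as it did for all genes.

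The replicates of BA at 48 h disagreed in direction. From t0, replicate 1 against replicates 2 and 3 gave fitted log2 changes of -2.88 and 0.52 for CLDN3, of -0.89 and 2.52 for CLDN4 and of -1.91 and 1.21 for CLDN10. For CLDN6 they were -1.66 and 0.06, and for CLDN7 -0.75 and 0.45. These 5 differences passed edgeR's test (adjusted p = 0.0100, 0.000227, 6.07e-05, 4.04e-05 and 0.00492), where 22.2% of all genes did. Of the 8 claudins, 5 differed between the sets in BA at 48 h against 24 h (20.8% of all genes), 5 in BA against E6 (18.8%), 6 in BA against E8 (20.7%) and 1 in E8 against t0 (14%). By edgeR 0 differed in BA at 24 h against t0 (0 at an unadjusted p below 0.05, 4.12% of all genes called), 0 in E6 against E8 (1 unadjusted, 1.84%) and 0 in E6 against t0 (3 unadjusted, 9.6%). This test takes its spread from replicates 2 and 3 alone, since each group has only 1 library of the other set. In the same BA libraries at 48 h, CDH1 stood at 42.3, 431 and 448 CPM and ZEB2, a repressor of CDH1, at 101, 4.31 and 6.41 CPM. EOMES, a mesendoderm T-box factor, stood at 1018, 43.2 and 44.9 CPM. The part of these differences in the claudin levels was not tested.

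**Figure D4:**
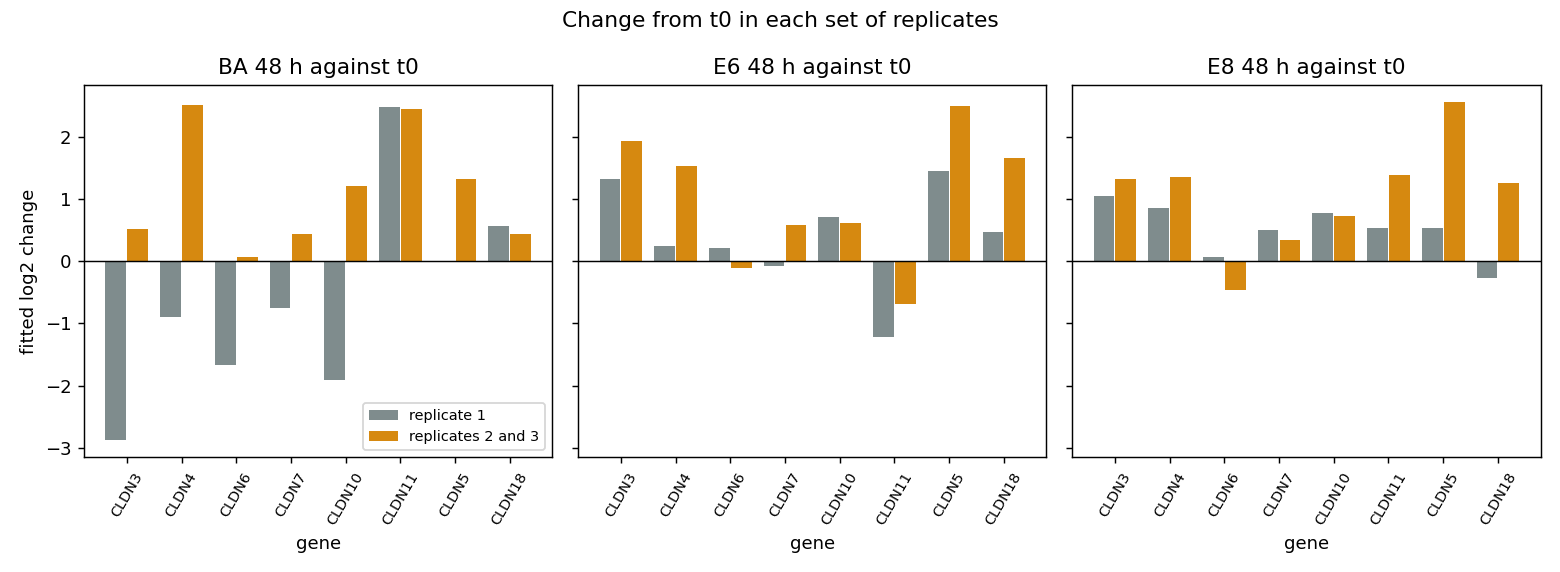
Fitted log2 change from t0 for the 8 claudins in BA, E6 and E8 at 48 h, with grey bars for replicate 1 and orange bars for replicates 2 and 3, without error bars. In BA the bars of CLDN3, CLDN4, CLDN6, CLDN7 and CLDN10 point in opposite directions, and those of CLDN11 reach 2.49 and 2.45.

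Levels between genes were compared per length, as mean CPM per kb of exon with the SD over 3 replicates. At t0 the order was CLDN6 at 331 ± 131, CLDN7 at 17.7 ± 11.8, CLDN3 at 4.54 ± 2.98, CLDN10 at 3.40 ± 1.23, CLDN11 at 2.90 ± 0.78 and CLDN4 at 1.88 ± 1.02 CPM per kb. CLDN18 and CLDN5 were below 0.1 on the same scale, at 0.0978 ± 0.0342 and 0.0723 ± 0.0137. Within each of the 3 t0 libraries CLDN6 exceeded CLDN7 (15.9- to 43.8-fold), CLDN7 exceeded CLDN3 (3.54- to 4.37-fold) and CLDN4 exceeded CLDN18 (5.53- to 32.8-fold). The other neighbours changed order between libraries. In BA at 48 h CLDN11 had a mean of 15.6 ± 4.82 CPM per kb. It was the second of the 8 in replicate 1 (21.1, with CLDN7 at 2.45), the fourth in replicate 2 (12.8, with CLDN4 at 14.9) and the third in replicate 3 (12.8). In E6, at 1.54 ± 0.19, it was the fifth in replicate 1 and the sixth in replicates 2 and 3.

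Of the 16 other claudin genes, CLDN8, CLDN17 and CLDN22 had no count in any library and 8 passed the filter of the group fit. CLDN23 was the only one called in a comparison of groups, higher than t0 in BA at 48 h (log2 change 1.57 ± 0.26 SE, adjusted p = 0.00562) and in E6 (1.04 ± 0.26, 0.0487), and higher in BA than in E8 (1.18 ± 0.26, 0.0364). In the time fit CLDN9, the neighbour of CLDN6, was lower in BA than in E6 (mean log2 difference -1.60, adjusted p = 0.00176) and E8 (-1.40, 0.00748). Replicate 2 of BA stood out for CLDN9, at 12.3 CPM at 24 h and 17.9 CPM at 48 h, where replicate 3 had 0.457 and 1.04 CPM. CLDN1 changed with time in BA (log2 change 1.32, adjusted p = 0.000510) and differed from E8 (mean log2 difference -0.053, 0.0261). CLDN23 was higher in BA than in E8 over time (0.79, 0.0244), and CLDN19 rose in E6 (2.06, 0.0249). Along the split of replicates, CLDN12 (2.03-fold) and CLDN16 (20.1-fold) were lower in replicates 2 and 3, whereas CLDN15 and CLDN19 were higher.

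Other tight junction genes moved in BA over time in both directions, in a share near that of all genes. Of 24 tested, 7 were lower and 2 higher than in E6, where 30.3% of all genes were called, with a median log2 difference of -0.19 against -0.0099 for all genes, and 7 were lower and 3 higher than in E8, where 30% were called. OCLN, which encodes occludin, was lower in BA than in E6 (mean log2 difference -1.04, adjusted p = 3.31e-06), and so was the scaffold gene TJP3 (-1.33, 3.26e-05). MAGI3, another scaffold gene, was higher (1.18, adjusted p = 2.21e-05). TJP1, the scaffold ZO-1, was not called (0.05, adjusted p = 0.205). In BA, CGNL1, which encodes paracingulin, rose from 6 to 48 h (log2 change 2.65, adjusted p = 4.23e-07) and from 24 to 48 h in the group fit (1.97 ± 0.37 SE, 0.0405).

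Of 20 epithelial genes, 6 were lower and 1 was higher in BA than in E6 over time (median log2 difference -0.29), also near the 30.3% of all genes called there. Against E6, EPCAM was among the lower (-1.08, adjusted p = 0.0284), KRT8 was the higher (0.49, 0.00409), and CDH1 was not called (-0.25, 0.176). Against E8 over time 2 were lower and 2 higher (median -0.0093), where 30% of all genes were called. With time in BA 2 were called higher and 0 lower (median -0.89, 22.1% of all genes called). In BA at 48 h against t0, 0 were called (median 0.77, 6.37% of all genes called). With replicates 2 and 3 alone, 16 were higher there and 0 lower, where 46.7% of all genes were called in either direction. Of 8 SNAI, ZEB and mesenchymal genes, 7 were higher in BA than in E6 (median log2 difference 1.54) and 7 than in E8. SNAI1 was higher than in E6 by a mean log2 of 1.77 (adjusted p = 2.38e-09), SNAI2 by 1.93 (6.82e-09) and ZEB2 by 1.32 (0.00960), and ZEB1 was not called (0.23, 0.381). In comparisons of groups FN1, which encodes fibronectin, was the only gene of this list called, at a log2 change of 3.89 ± 0.72 SE over t0 in BA at 48 h (adjusted p = 0.00861). Markers of pluripotency summed to 3193 to 4441 CPM at t0 and to 1704 to 5000 CPM in BA at 48 h. In the mean POU5F1 rose from 967 to 1478 CPM. SOX2 (218 and 94.8 CPM), DPPA4 (815 and 332 CPM) and NANOG (47.4 and 37.0 CPM) were lower. So were LIN28A (1440 and 1334 CPM) and TDGF1 (401 and 307 CPM). Of the 6, 1 was called lower than t0 and 0 higher (6.37% of all genes called). With time in BA 4 were lower and 1 higher (22.1% of all genes called). The definitive endoderm list went from 8.26 to 15.7 CPM at t0 to 49.6 to 3342 CPM in BA at 48 h. Most of the rise in the mean lay in CER1 (means of 9.80 and 929 CPM), with GATA6 (0.035 and 142 CPM) and SOX17 (0.012 and 64.2 CPM). CXCR4 had means of 1.06 and 8.98 CPM. FOXA2 ran from 0.354 to 1.49 CPM at t0 and from 0.061 to 8.91 CPM in BA, so it did not rise in every library. The summed primitive streak genes went from 1.10 to 1.28 CPM at t0 to 109 to 1875 CPM in BA at 48 h and the amnion list from 5.90 to 5.99 CPM to 139 to 265 CPM. In the amnion list the rise lay in GATA3 (means of 0.402 and 83.0 CPM), TFAP2A (0.111 and 42.8 CPM), GATA2 (0.142 and 31.0 CPM) and ISL1 (0.058 and 19.2 CPM). KRT7 (2.21 and 2.21 CPM), VTCN1 (0.231 and 0.264 CPM) and GABRP (2.79 and 2.99 CPM) hardly moved in the mean. The part of these marker lists in the claudin levels was not tested.

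Among the 25 single libraries and replicates 1, the genes with courses most like a claudin were found by Pearson's r of log2(CPM + 1). These libraries share a time course and the split in epithelial genes, and r is given as a description. CLDN7 was most like SPINT1 (r = 0.988), a protease inhibitor of epithelia, AP1M2 (0.972), of epithelial sorting vesicles, and KDF1 (0.962). Over the other 10 libraries these r were 0.35, 0.88 and 0.82. CLDN11 was most like the neural adhesion gene L1CAM (0.906), the Notch ligand DLL3 (0.850) and F13A1 (0.847), with 0.67, 0.63 and 0.19 over the other 10. CLDN6 was most like THYN1 (0.959), KHK (0.952) and ATP6V0E2 (0.952), and CLDN10 was most like TMEM159 (0.935), TMEM151B (0.935) and PPIP5K1 (0.918). Over the other 10 libraries these 6 r lay between -0.432 and 0.271. Between claudins, CLDN4 and CLDN7 had r = 0.892 over the 25 libraries and 0.756 over the 10. For CLDN3 and CLDN6 the values were 0.829 and -0.296.

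The authors' deposited table, whose header does not name the reference, lists CLDN11 at a log2 fold change of 2.31 in BA at 48 h (adjusted p = 1.54e-07). For E8 at 48 h the authors' deposited table gives CLDN11 0.94 (adjusted p = 0.0457), and for E6 -0.90 (0.0485). It lists CLDN5 at 1.85 in E6 at 48 h (adjusted p = 0.0034 in the authors' deposited table). In the authors' deposited table no other of the 8 claudins has an adjusted p below 0.05 in any of its 4 comparisons.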

How the data were processed

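Whole-number counts of reads per gene were deposited by the authors for 35 libraries, with GENCODE v23 genes per the file headers, and hg38, featureCounts and DESeq2 are named in the submitters' processing notes. The aligner, the versions and the strand setting are not given in the sources used here. The authors' deposited table of comparisons holds log2 fold changes and adjusted p-values, and its header names no reference group. No column of per-sample values was left unused (0).

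CPM values were computed from the counts with library sizes scaled by TMM over all 35 libraries, whose totals were 11793453 to 37191969. That depth makes values of a few counts uncertain. Groups were compared with edgeR 4.0.16 (quasi-likelihood F-test, TMM, filterByExpr, R 4.3.3) over the 15 libraries of the replicated groups and 21554 genes. Time was fitted over 24 libraries, from single libraries and replicate 1, and 18470 genes with at least 10 counts in at least 3 libraries and 15 in all, with a natural spline of 3 degrees of freedom for each medium. Adjusted p-values are Benjamini-Hochberg over all genes tested, with 0.05 as the threshold for a call. A fitted difference between media is the mean over the 8 hours, and a change with time is 48 h minus 6 h. DESeq2 1.42.0, other size factors, filters, sample sets and left-out libraries were alternatives. The alternative written as 34 libraries after t0 held 32. The scripts were tested on simulated data.

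Same-numbered libraries deviated together from their group means (r of 0.732 to 0.884 for replicate 1, 0.641 to 0.776 for replicate 2 and 0.587 to 0.718 for replicate 3). The split of replicate 1 from replicates 2 and 3 can by itself give such r, so they do not show that the numbers are pairs. Replicate number entered as a block only in an alternative. The fit without the block is the main one, and its p-values ignore any pairing. All 8 claudins are named. In each other list the genes with the largest called changes are named, at most 5, with CDH1, EPCAM, OCLN, TJP1, SNAI1, SNAI2, ZEB1 and ZEB2, and every other claudin called. Claudins with 10 CPM in at least 1 of 25 libraries have their most alike genes named. The members and lists were chosen with earlier results of these data known.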

Additional observations from a re-analysis of the deposited data

Results flagged for a closer look

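Each difference below is the fitted log2 change in replicates 2 and 3 minus that in replicate 1, and each passed edgeR's test of that difference. They are 22 of 64 pairs of claudin and comparison. Each group has 1 library in the replicate 1 arm, the spread comes from replicates 2 and 3 alone, and the split was chosen after seeing the data. The comparisons also share libraries, so the p-values are not 22 separate pieces of evidence and the values serve as a description. For BA at 48 h against t0 they were 3.40 for CLDN3, 3.41 for CLDN4, 1.73 for CLDN6, 1.19 for CLDN7 and 3.12 for CLDN10, with replicate 1 lower than t0 in each.

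For BA at 48 h against BA at 24 h the differences were 2.93 for CLDN3 (adjusted p = 0.0292), 2.92 for CLDN4 (0.000694), 1.42 for CLDN6 (0.000230), 0.91 for CLDN7 (0.0226) and 2.68 for CLDN10 (0.000228). The change of CLDN4 was -1.26 in replicate 1, against 1.66 in the other libraries.

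For BA against E6 at 48 h they were 2.79 for CLDN3, 2.13 for CLDN4, 2.04 for CLDN6 and 3.20 for CLDN10. For CLDN11 it was -0.56 (adjusted p = 0.0384), between differences of 3.70 and 3.14 that share their sign. For BA against E8 they were 3.12 for CLDN3, 2.90 for CLDN4, 2.26 for CLDN6, 1.35 for CLDN7 and 3.18 for CLDN10. There CLDN11 gave -0.89 (adjusted p = 0.00194), between 1.95 and 1.06. For E8 at 48 h against t0, CLDN11 gave 0.85 (adjusted p = 0.00699), between 0.54 and 1.39.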

How the results depend on the processing

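Counts of claudins called moved most with the set of replicates. In this section, a count without a share of all genes beside it describes that refit alone. Such a count does not set the claudins apart from other genes. With the replicate block, 3 were called in BA against E6 at 48 h, 3 in E8 against t0, 2 in BA at 48 h against t0, 4 in E6 against t0 and 2 in BA against E8, and the block changed no call other than those given with it above. A term for replicate 1 against replicates 2 and 3 gave 3, 3, 2, 4 and 3 in the same order. With replicates 2 and 3 alone, chosen after seeing the data, the counts were 3 in BA at 24 h against t0, 4 in BA at 48 h against 24 h, 6 in BA against E6, 2 in E6 against E8, 8 in E8 against t0, 5 in BA at 48 h against t0, 7 in E6 against t0 and 6 in BA against E8. With only the 2 groups in the fit, 0 were called in BA at 48 h against 24 h, in E6 against E8, in E6 against t0 and in BA against E8. At those sizes edgeR called 0, 0, 3 and 47 of all genes. DESeq2 called 2 in E8 against t0 and 2 in E6 against t0, and without a count filter 0 were called in E6 against t0. Leaving out each library in turn gave 0 to 1 in E6 against E8, in E8 against t0, in E6 against t0 and in BA against E8.

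Over time, paired hours gave 2 calls in BA against E6 and 2 in BA against E8. All 32 libraries with a term for the split gave 2 in BA against E8 and 1 with time in BA, where CLDN10 turned to 0.30. DESeq2 gave 5 with time in BA. Leaving out each hour gave 3 to 5 with time in BA and 0 to 1 with time in E6, and a mean difference of CLDN11 between BA and E8 of -0.69 to 0.095, positive only without 36 h. Without BA at 42 h, E8 at 18 and 36 h and E6 at 18 h, chosen after seeing the data, 1 was called in E6 against E8 (1.7% of all genes), 6 with time in BA (36.2%), 2 with time in E6 (9.41%) and 1 with time in E8 (6.98%). The causes were not tested. Of 381 refits of 27 claudin results called in the fit without the block or, for groups, with it, 320 kept the side of the threshold and the direction, 34 became called, 25 were lost and 2 turned. Depth limits CLDN5 and CLDN18, and CLDN3 late in BA.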

Other observations

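CLDN9, whose gene neighbours CLDN6, differed between replicates 2 and 3 of BA, which were otherwise close (r of 0.994 to 0.995 over genes). It stood at 12.3 and 17.9 CPM at 24 and 48 h in replicate 2 and at 0.457 and 1.04 CPM in replicate 3. CLDN4 and CLDN11 had r = -0.699 over the 25 single libraries and replicates 1 and 0.657 over the other 10, and CLDN7 and CLDN11 had -0.709 and 0.221. CLDN5 and CLDN18 had r = -0.290 over the 25 and 0.886 over the 10. These values describe the libraries, and no test was made of them.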
